A study of Arabidopsis thaliana with 10 samples.

Results

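The plastid-encoded gene expression machinery was followed as transcripts in Arabidopsis thaliana seedlings on Affymetrix ATH1 arrays. Members were all probe sets annotated to genes of the chloroplast genome whose symbols do not begin with psa, psb, pet, atp, ndh or rbcL, the prefixes of subunits of the photosynthetic complexes, ATP synthase, the NDH complex and Rubisco. The rule found 33 probe sets for 32 genes among the 22810 probe sets of the array. They were 20 probe sets for 19 ribosomal proteins (rps12 has 2), 4 for the subunits of the plastid RNA polymerase and 9 for other genes. Of the members, 7 probe sets for 6 genes (rps12, rps7, rpl2, rpl23, ycf1 and ycf2) list 2 loci, so their signal cannot be assigned to either.

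The chloroplast keeps a small genome with its own bacterial-type machinery for reading it. Its RNA polymerase, called PEP, is built from the plastid genes rpoA, rpoB, rpoC1 and rpoC2 and needs nuclear-encoded sigma factors, while the rpo genes themselves and some other housekeeping genes are read largely by a phage-type polymerase encoded in the nucleus. Plastid ribosomes combine plastid-encoded proteins of the large (rpl) and small (rps) subunit with others imported from the cytosol. Many of the genes lie in operons inherited from the cyanobacterial ancestor and are cut from long shared precursors, and the machinery is known to be made early in chloroplast development, ahead of the photosynthetic complexes. Among the other members are matK, an intron maturase, and clpP, a catalytic subunit of the stromal Clp protease. The gene accD encodes a subunit of acetyl-CoA carboxylase for fatty acid synthesis, and ccsA attaches haem to c-type cytochromes. Photosystem I is assembled by ycf3 and ycf4, and cemA is an envelope protein. The large open reading frames ycf1 and ycf2 are assigned to protein import.

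The series examined how a far-red pretreatment that blocks chloroplast development changes the seedling transcriptome. Each of 10 arrays was hybridised with RNA from a pool of 300 whole young seedlings with cotyledons, hypocotyl and primary root but no true leaves, kept at 22 °C in continuous light. There were 6 groups. WT_FR and WT_D were wild type (Col-0) with far-red before white light and without it, 2 arrays each. The pair gun1gun5_FR and gun1gun5_D, also 2 arrays each, held the gun1,gun5 double mutant, affected in chloroplast-to-nucleus signalling, and phyA_FR and phyA_D held a phyA-null mutant, which lacks the main far-red photoreceptor, with 1 array each. In the source names D stands in the word Dpretreated, and no label explains it. The medium was MS without sucrose except that both WT_D labels give 1.5% sucrose and the label of WT_D replicate 2 also lists 5 µM norflurazon, which stops carotenoid synthesis. For phyA_D the medium entry reads only as lacking sucrose. Medium and pretreatment therefore cannot be told apart in the wild-type comparison, nor medium and genotype where WT_D is compared with a mutant. The labels name no parental ecotype for either mutant, so allele and genetic background cannot be told apart, and no label shows that replicates came from separate cultures. The p-values then cover the variation among the pools measured, which may be technical.

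Values were probe-set intensities, scaled on each array by the authors to a trimmed mean near 100. Labelling started from an oligo(dT) primer per the labels, and plastid transcripts largely lack stable poly(A) tails, so intensities describe what was primed and not total plastid RNA. In whole seedlings, fewer plastid-bearing cells and less RNA per cell cannot be told apart. The 25S rRNA control ranged from 314.8 to 3003.8 over the arrays, with 376.7 and 3003.8 in gun1gun5_D. The actin 3'/5' ratio, a sign of RNA integrity, was 1.92 and 1.76 on the phyA_FR and phyA_D arrays and between 1.3 and 1.58 on the other 8. Of the cotyledon markers 4 of 6 had a named probe set (LHCB4.1, LHCB4.2, LHCB4.3, RCA), and their summed intensity was 6121.1 to 6573.4 in WT_FR, 8149.8 to 8844.4 in WT_D, 7121.8 to 7283.9 in gun1gun5_FR, 10112.9 to 11034.6 in gun1gun5_D, 9438.9 in phyA_FR and 9816.4 in phyA_D. No marker of the list was under 16 on any array. Of 7 root markers only PYK10 had one (2150.1 to 3268.7), and of 4 seed markers none did. The part of these measures in the results below was not tested.

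Differences are given on the log2(value + 16) scale with the standard error (SE) of a limma model with the 6 group means, and a probe set was called at an adjusted p under 0.05 over 13647 tested probe sets. Of the members, 32 were tested. The one left out, ycf2, fell below the filter, with intensities between 8.1 and 48.4.

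The median deviation of the 32 tested members from their 10-array means was -0.32 and -0.30 on the WT_FR arrays, -0.16 and -0.04 on WT_D, -0.11 and -0.15 on gun1gun5_FR, 0.03 and 0.34 on gun1gun5_D, and 0.34 on both phyA arrays. The lowest arrays were thus the far-red wild type and the highest the phyA arrays with gun1gun5_D replicate 2. Replicates of gun1gun5_D stood apart, since 31 of 32 members were higher on replicate 2, by a median of 0.38. So were 36 of 44 plastid photosynthesis probe sets, by a median of 0.14, and 6535 of all 13647 tested probe sets. In WT_D 27 of 32 members were higher on the array listing norflurazon, by a median of 0.16. There 35 of 44 plastid photosynthesis probe sets and 6614 of all 13647 were higher too. The members' replicate medians differed by 0.02 in WT_FR and -0.08 in gun1gun5_FR.

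**Figure D1:**
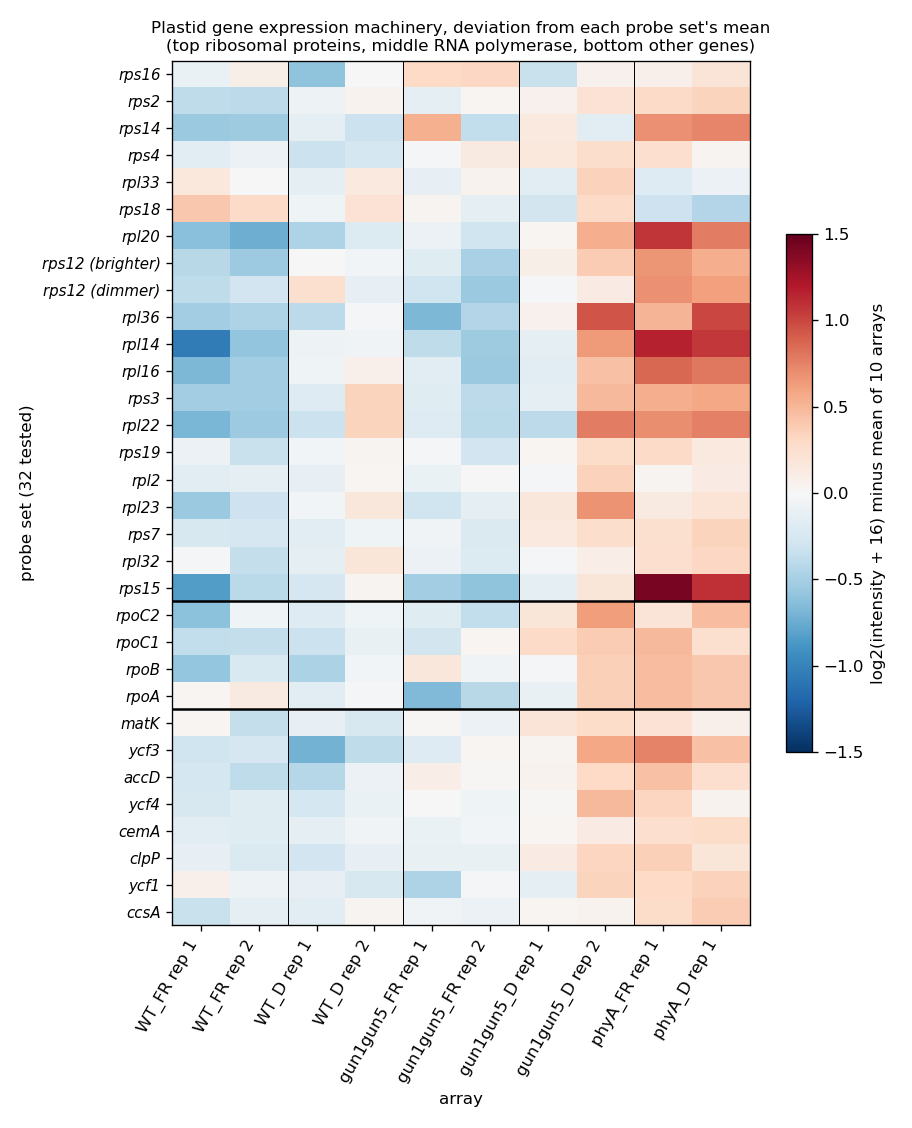
Deviation of each of the 32 tested member probe sets (rows) from its mean over 10 arrays (columns), in log2(intensity + 16), red above and blue below the mean. The phyA columns are red for most ribosomal protein rows, and rps18 runs the other way.

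**Figure D2:**
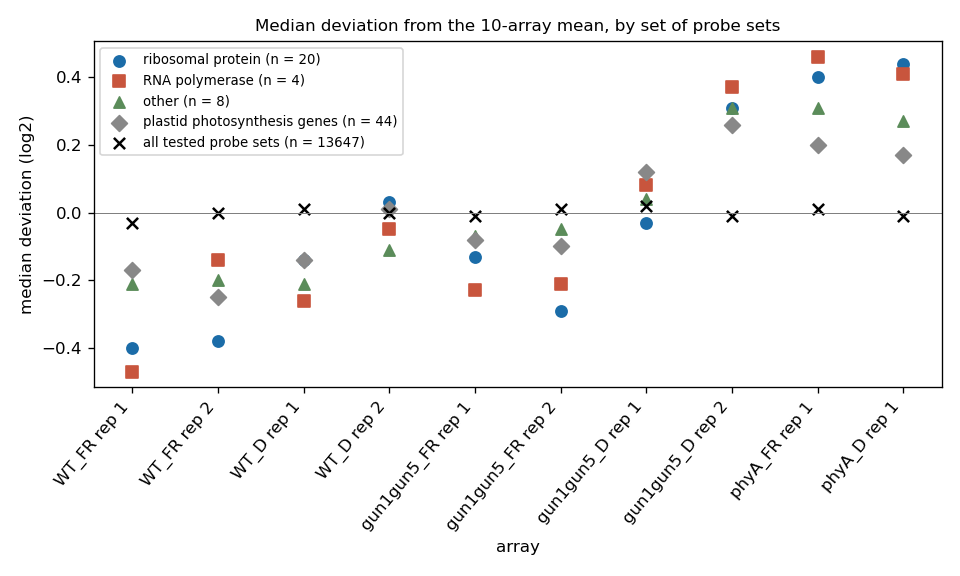
Median deviation per array, in log2 units, of ribosomal protein, RNA polymerase and other members, of plastid photosynthesis genes and of all tested probe sets. The ribosomal protein median runs from -0.40 on WT_FR replicate 1 to 0.44 on phyA_D, while that of all tested probe sets stays near 0.

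In wild type, transcripts of some plastid ribosomal proteins were lower after far-red, and those of the polymerase and other members showed no called change. Of 32 members 4 fell and 0 rose, 12.5%, against 22.4% of all tested probe sets called in either direction (9.72% higher and 12.6% lower), so the share called lower was about that of the background. All 4 encode ribosomal proteins. The median difference was -0.33 for 20 ribosomal protein probe sets, -0.14 for 4 polymerase probe sets, -0.01 for 8 others, -0.14 for 44 plastid photosynthesis probe sets and -0.01 for all tested.

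The largest fall was that of rpl14, a large-subunit protein that sits at the subunit interface in bacterial ribosomes, which read 206.8 and 289.8 in WT_FR and 421.4 and 429.0 in WT_D. It fell by 0.76 ± 0.23, or 1.69-fold (limma adjusted p = 0.0398). Its neighbour rpl16 read 484.6 and 540.5 against 748.9 and 827.1 and fell by 0.61 ± 0.19 (limma adjusted p = 0.0484). In both genes the groups did not overlap.

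The small-subunit protein gene rps12, whose transcript is joined by trans-splicing, has a pair of probe sets. On the brighter one it read 603.1 and 547.6 in WT_FR and 813.4 and 786.5 in WT_D, a fall by 0.47 ± 0.14 (limma adjusted p = 0.0378). On the dimmer one it read 95.5 and 102.9 against 155.4 and 116.3, a difference of -0.39 ± 0.16 that was not called (limma adjusted p = 0.103). Both probe sets had the lower values after far-red, without overlap. The remaining called gene, rps2, read 680.4 and 675.0 against 846.2 and 922.6 and fell by 0.37 ± 0.11 (limma adjusted p = 0.0398). In gun1gun5 rps2 read 805.2 and 910.7 after far-red and 928.1 and 1039.1 without, a difference of -0.19 that was not called.

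The arrays of the groups did not overlap for 17 of 32 members that were lower in WT_FR (53.1%; 31.6% of all tested probe sets) and for 5 that were higher (28.8% of all tested). Among 44 plastid photosynthesis probe sets 23 were lower without overlap (52.3%) and 2 higher. Of the 17, 15 were ribosomal protein probe sets. The 5 higher ones held rps4, rps18, rpoA, ycf3 and ycf1, none of them called. In rpoA the WT_FR arrays read 469.1 and 505.9 and the WT_D arrays 406.4 and 450.3.

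The wild-type calls depended on the processing and on single arrays. None of the 4 was called after median centring, without a filter on level, or when WT_FR replicate 1 or WT_D replicate 2, the array listing norflurazon, was left out, although each kept a negative difference in every alternative run.

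In the gun1gun5 double mutant, where both groups shared a medium, far-red went with lower transcripts of the polymerase as well as of ribosomal proteins. Of 32 members 7 fell and 0 rose, 21.9%, against 14.4% of all tested probe sets called (6.38% higher and 8.06% lower). Among them were 3 of 4 polymerase subunits (rpoA, rpoC1, rpoC2) and 4 of 20 ribosomal protein probe sets. The median difference was -0.40 for ribosomal proteins, -0.56 for the polymerase, -0.28 for the others and -0.26 for the plastid photosynthesis genes, with all tested probe sets at 0.00. All 4 tested cotyledon markers fell as well, by between 0.32 (RCA) and 1.49 (LHCB4.3), as did the root marker PYK10, by 0.40 ± 0.10, and in the wild-type contrast LHCB4.2 and LHCB4.3 fell. Their part in these results was not tested.

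Of the polymerase, rpoA, the assembly subunit, read 284.3 and 341.0 in gun1gun5_FR and 424.3 and 590.8 in gun1gun5_D. It fell by 0.66 ± 0.16, or 1.58-fold (limma adjusted p = 0.0239). The catalytic-core gene rpoC2 read 334.7 and 292.3 against 436.8 and 599.8 and fell by 0.68 ± 0.20 (limma adjusted p = 0.0433), with 244.8 and 365.1 in WT_FR and 332.3 and 365.0 in WT_D. Both genes had the higher of the D values on replicate 2.

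For rpoC1, the other part of the split beta' subunit, the readings were 696.8 and 865.8 against 1043.9 and 1112.6, and it fell by 0.46 ± 0.13 (limma adjusted p = 0.0398). The beta subunit gene rpoB read 44.2 and 35.9 against 36.6 and 52.8, overlapping groups with a difference of -0.11 that was not called. Its signal was low, near the intensity of 24.8 at which the filter lay.

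Among ribosomal proteins rpl36 had the largest fall, reading 72.3 and 88.5 in gun1gun5_FR and 131.3 and 256.4 in gun1gun5_D. It fell by 1.06 ± 0.25, or 2.09-fold (limma adjusted p = 0.0181), and by 0.62 without gun1gun5_D replicate 2. The D replicates thus differed from each other more than the FR replicates did.

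The inverted-repeat genes rpl23 and rps7 also fell. For rpl23 the arrays read 1019.0 and 1126.3 against 1411.1 and 2004.8, a fall by 0.64 ± 0.16 (limma adjusted p = 0.0264). For rps7, a small-subunit protein, they read 2076.8 and 1856.4 against 2380.1 and 2597.9, a fall by 0.34 ± 0.10 (limma adjusted p = 0.0412), while its WT readings were 1818.2 and 1805.1 in WT_FR and 1926.9 and 2061.5 in WT_D. On its brighter probe set rps12 read 710.6 and 570.8 against 858.4 and 1054.9 and fell by 0.57 ± 0.14 (limma adjusted p = 0.0238). Its dimmer probe set read 101.5 and 82.2 against 126.0 and 141.6, a difference of -0.48 that was not called. The brighter one was the member called lower in both genotypes (1 of 32; 4.76% of all tested probe sets), and 10 of 32 were called lower in either (16% of all tested). Differences were below 0 in both for 22 of 32 (34.7% of all tested).

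Of the 8 tested members outside these classes 0 were called (1 at an unadjusted p under 0.05), with differences from -0.39 (ycf3) to -0.11 (ccsA). Their median of -0.28 was -0.10 without gun1gun5_D replicate 2 and -0.13 after quantile normalization. Over all members, 22 of 32 were lower in gun1gun5_FR without overlap (68.8%; 31.2% of all tested probe sets) and 1, rps16, was higher (30.2% of all tested). The plastid photosynthesis probe sets gave 28 of 44 lower (63.6%) and 0 higher. The intron-containing rps16 read 278.6 and 281.4 in gun1gun5_FR and 172.9 and 234.0 in gun1gun5_D.

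Here too the calls rested on few arrays. None of the 7 was called without either gun1gun5_FR array, without gun1gun5_D replicate 2 or without a filter on level, while 14 of 32 members were called without gun1gun5_D replicate 1 (11.7% of all tested probe sets at that setting). Over all tested probe sets the other settings called 3.71%, 5.11%, 4.95% and 5.5%, in the order given. The ribosomal protein median went from -0.40 to -0.16 without gun1gun5_D replicate 2.

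**Figure D3:**
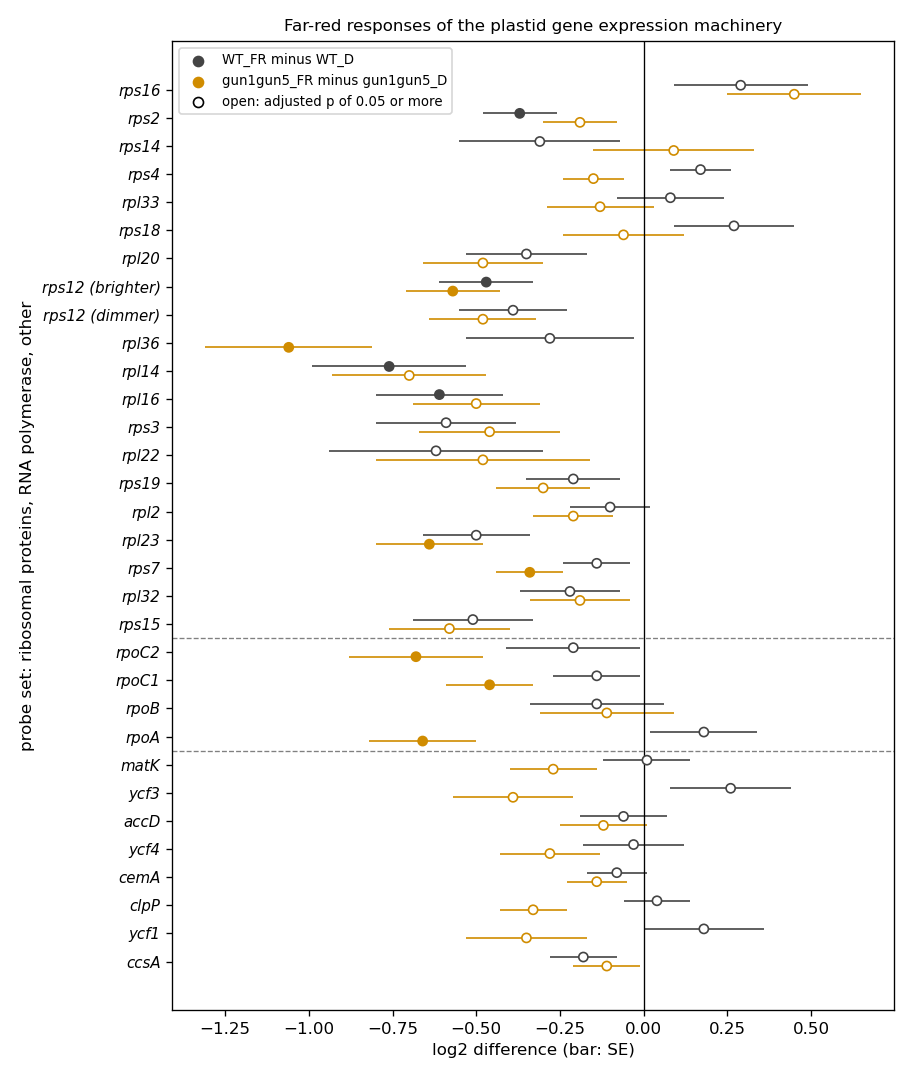
Far-red differences (log2, points; bars, SE) of the 32 tested members in WT (grey) and gun1gun5 (orange), filled where limma's adjusted p was under 0.05. Most points lie left of 0 in both genotypes. Those of rpoA, ycf3, rps4, rps18, ycf1, rpl33, clpP and matK lie right of 0 in WT and left of it in gun1gun5.

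Whether the far-red difference was itself different in gun1gun5 was tested as an interaction. It includes WT_D, the only group listed with sucrose, so genotype and medium cannot be told apart in it. With limma 0 of 32 members were called, against 2.82% of all tested probe sets (0.791% higher and 2.03% lower), and 5 members had an unadjusted p under 0.05 (2195 of 13647 probe sets over all). These 5 were rpoA (-0.84 ± 0.23, limma adjusted p = 0.0875), rpl36 (-0.78 ± 0.35), ycf3 (-0.66 ± 0.26), clpP (-0.37 ± 0.15) and rps4 (-0.32 ± 0.13). For rpoA, ycf3 and rps4 the arrays read higher after far-red in WT and lower in gun1gun5, without overlap in either. The share of all tested probe sets with this pattern was not counted, and the interaction was not called for these genes. The class medians were -0.40 for the polymerase, -0.27 for the others and -0.09 for ribosomal proteins, the last of which became 0.09 without gun1gun5_D replicate 2.

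Without far-red, several machinery transcripts were higher in gun1gun5 seedlings than in wild type. Only WT_D was listed with 1.5% sucrose, and WT_D replicate 2 also with norflurazon, so genotype and medium cannot be told apart here. Of 32 members 4 rose and 0 fell (12.5%; 9.2% of all tested probe sets called, 4.06% higher and 5.14% lower): rps4, ycf3, rpoC1 and clpP. The median was 0.17 for ribosomal proteins, 0.48 for the polymerase, 0.42 for the others and 0.26 for plastid photosynthesis genes, with all tested at 0.00. Without gun1gun5_D replicate 2 the medians were near 0 for ribosomal proteins, 0.27 for the polymerase and 0.26 for the others, and without replicate 1 they were 0.39, 0.61 and 0.52. After quantile normalization the median of the others was 0.22. The arrays of 16 members were higher in gun1gun5_D than in WT_D without overlap (50.0%; 27.3% of all tested) and those of 0 were lower (27.5% of all tested). For plastid photosynthesis probe sets 28 of 44 were higher (63.6%) and 1 lower.

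The photosystem I assembly factor ycf3 read 446.8 and 655.7 in gun1gun5_D and 258.7 and 329.9 in WT_D, a rise of 0.85 ± 0.18, or 1.81-fold (limma adjusted p = 0.0198). The small-subunit gene rps4 read 2273.0 and 2437.0 against 1618.8 and 1682.0 and rose by 0.51 ± 0.09 (limma adjusted p = 0.0111). All 4 arrays of each gene kept to their group's side.

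The polymerase gene rpoC1 read 1043.9 and 1112.6 against 674.5 and 785.7 and rose by 0.56 ± 0.13 (limma adjusted p = 0.0272). The protease gene clpP read 2295.0 and 2646.2 against 1726.9 and 1935.4 and rose by 0.43 ± 0.10 (limma adjusted p = 0.0299). After quantile normalization the differences of clpP and rps4 were 0.20 and 0.30 and neither was called. None of the 4 was called without WT_D replicate 1 or without a filter on level, and only rps4 was without gun1gun5_D replicate 2.

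After far-red 1 of 32 members was called between gun1gun5 and wild type. The gene rpoA read 284.3 and 341.0 in gun1gun5_FR and 469.1 and 505.9 in WT_FR. It fell by 0.62 ± 0.16 in gun1gun5 relative to wild type (limma adjusted p = 0.0236), while 20.2% of all tested probe sets were called (9.8% higher and 10.4% lower). The other polymerase genes had differences above 0 (rpoC2 0.06, rpoC1 0.23, rpoB 0.46), none of them called. The arrays of 19 of 32 members were higher in gun1gun5_FR without overlap (34.5% of all tested) and those of 2 lower (28.2% of all tested). Plastid photosynthesis probe sets were higher in 21 of 44 (47.7%) and lower in 1. The class medians were 0.16 for ribosomal proteins and 0.15 both for the polymerase and for the others. The rpoA call ended without WT_FR replicate 2 or gun1gun5_FR replicate 1 or 2, and without a filter on level, with differences between -0.74 and -0.50 over all alternatives.

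The largest differences of the machinery set the phyA_FR array apart from the far-red wild type. Of 32 members 17 rose and 0 fell, 53.1%, against 12.6% of all tested probe sets called (6.97% higher and 5.65% lower). These were 10 of 20 ribosomal protein probe sets, 2 of 4 polymerase genes and 5 of 8 others. The median was 0.84 for ribosomal proteins, 0.69 for the polymerase, 0.52 for the others, 0.41 for plastid photosynthesis genes (17 of 44 called higher) and 0.02 for all tested. All 4 tested cotyledon markers also rose here (LHCB4.1, LHCB4.2, LHCB4.3 and RCA, by 0.50, 1.05, 1.28 and 0.38), and their part in the result was not tested. This comparison has 1 phyA_FR array, assumed to vary like the arrays of other groups.

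The largest rise was that of rps15, a small-subunit protein. It read 335.3 in phyA_FR and 262.9 in phyA_D, and 57.1 and 82.7 in WT_FR. On the remaining arrays it read 93.4 and 117.7 in WT_D, 75.2 and 70.2 in gun1gun5_FR and 102.6 and 132.2 in gun1gun5_D. Both phyA arrays lay above the other 8, and rps15 rose by 2.05 ± 0.22 over WT_FR, or 4.14-fold (limma adjusted p = 0.000344).

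The large-subunit gene rpl14 read 1008.8 in phyA_FR and 944.2 in phyA_D, with 339.6 and 302.5 in gun1gun5_FR and 400.7 and 705.0 in gun1gun5_D. It rose by 1.97 ± 0.28 over WT_FR, or 3.93-fold (limma adjusted p = 0.00178). For rpl20, which lies elsewhere on the genome, the phyA arrays read 731.0 and 584.8. Its other values were 212.8 and 196.8 in WT_FR, 241.6 and 290.5 in WT_D, 316.6 and 273.0 in gun1gun5_FR, and 346.2 and 500.2 in gun1gun5_D. It rose by 1.76 ± 0.21, or 3.39-fold (limma adjusted p = 0.000668) with both phyA arrays above the other 8.

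Next came rpl16, at 1440.3 and 1369.5 on the phyA arrays, with 697.5 and 530.7 in gun1gun5_FR and 694.5 and 1074.8 in gun1gun5_D. It rose by 1.46 ± 0.24 over WT_FR (limma adjusted p = 0.0035). The small-subunit gene rps14 was dim, at 89.3 and 92.6 on the phyA arrays and 28.6 and 29.3 in WT_FR, and rose by 1.23 ± 0.30 (limma adjusted p = 0.0227). Its readings were 43.2 and 36.2 in WT_D, 78.4 and 34.6 in gun1gun5_FR and 56.5 and 42.4 in gun1gun5_D, so that replicates of gun1gun5_FR were far apart.

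Both rps12 probe sets rose, by 1.15 ± 0.17 on the brighter (1292.5 and 1187.2 on the phyA arrays) and by 1.01 ± 0.19 on the dimmer (216.4 and 205.5). The small-subunit gene rps3 read 1258.6 and 1296.3 on the phyA arrays. Its other readings were 595.7 and 593.8 in WT_FR, 752.0 and 1087.6 in WT_D, 753.9 and 650.8 in gun1gun5_FR and 775.2 and 1212.3 in gun1gun5_D. It rose by 1.06 ± 0.26, and gun1gun5_D replicate 2 came close to phyA. The genes rps2 (1093.1 and 1122.0 on the phyA arrays) and rps7 (2542.5 and 2714.4) rose by 0.68 ± 0.14 and 0.49 ± 0.12.

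Of the polymerase, rpoB read 58.1 and 55.0 on the phyA arrays, 20.0 and 30.0 in WT_FR and 22.6 and 36.4 in WT_D, and rose by 0.86 ± 0.24 over WT_FR (limma adjusted p = 0.0425). At this low signal its difference ran from 0.46 to 1.21 with the pseudocount, and the call was lost in 7 of 16 alternatives, WT_FR replicate 1 left out among them (0.69). The gene rpoC1 read 1196.8 and 1008.2, with 656.1 and 659.8 in WT_FR, and rose by 0.85 ± 0.16 (limma adjusted p = 0.0073). With 636.8 and 615.5 rpoA was higher on both phyA arrays than on any other array, but its difference from WT_FR, 0.38, was not called, nor was that of rpoC2 (439.0 and 534.4; 0.53).

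Among the other members ycf3 read 734.6 in phyA_FR and 592.2 in phyA_D, with 347.8 and 360.3 in WT_FR and 376.4 and 443.3 in gun1gun5_FR, and rose by 1.02 ± 0.23 (limma adjusted p = 0.0153). The carboxylase gene accD read 1714.9 and 1503.9 on the phyA arrays, 1044.1 and 962.1 in WT_FR and 928.5 and 1179.2 in WT_D. In gun1gun5 it read 1348.5 and 1267.2 after far-red and 1303.6 and 1545.4 without. It rose by 0.77 ± 0.16, and phyA_D lay below gun1gun5_D replicate 2.

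Smaller rises were those of clpP (0.53 ± 0.13), ccsA (0.52 ± 0.13) and cemA (0.43 ± 0.11). The cytochrome assembly gene ccsA read 2351.0 and 2536.8 on the phyA arrays, 1537.1 and 1749.8 in WT_FR, 1740.9 and 1999.7 in WT_D, 1875.3 and 1833.0 in gun1gun5_FR and 1978.0 and 2014.7 in gun1gun5_D. The envelope protein gene cemA read 2113.4 and 2158.6 on the phyA arrays, 1569.6 and 1563.7 in WT_FR, 1605.2 and 1709.6 in WT_D, 1659.8 and 1730.7 in gun1gun5_FR and 1809.1 and 1937.6 in gun1gun5_D. In neither gene did the phyA arrays overlap the other 8. The maturase gene matK overlapped, at 2319.1 and 2112.5 against 2039.8 and 1554.0 in WT_FR, 1831.9 and 1695.4 in WT_D, 2023.5 and 1882.1 in gun1gun5_FR and 2281.2 and 2422.5 in gun1gun5_D. Its difference of 0.38 was not called (limma adjusted p = 0.145).

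Some members called in other contrasts were not called here. The gene rpl36 read 185.2 in phyA_FR and 266.2 in phyA_D, 82.3 and 86.9 in WT_FR and 91.6 and 122.4 in WT_D, a difference of 1.00 ± 0.30 from WT_FR that was not called (limma adjusted p = 0.0554). For rpl23 the phyA arrays read 1380.6 and 1441.1, WT_FR 844.9 and 1007.1 and WT_D 1221.2 and 1407.0 (0.57 ± 0.20, limma adjusted p = 0.0919). In both genes gun1gun5_D replicate 2 or phyA_D gave the highest reading.

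For rps4 the phyA arrays read 2426.0 and 2090.3, the WT_FR arrays 1813.4 and 1905.2 and the gun1gun5_FR arrays 2010.3 and 2225.2 (phyA_FR minus WT_FR 0.38 ± 0.12, limma adjusted p = 0.0565). The protease gene clpP read 2715.7 and 2390.0 on the phyA arrays, 1937.9 and 1816.2 in WT_FR and 1959.6 and 1946.6 in gun1gun5_FR. The gene rpl2, for a large-subunit protein close to the peptidyl transferase centre, read 2374.0 and 2509.3 on the phyA arrays and 2059.7 and 2089.3 in WT_FR (0.19, not called). It read 2103.7 and 2345.8 in WT_D, 2142.3 and 2297.7 in gun1gun5_FR and 2255.2 and 2930.5 in gun1gun5_D. The phyA arrays did not stand above the rest in rpl2 or rps4.

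Only rps18 and rpl33, a small- and a large-subunit protein gene that lie side by side, had negative differences between phyA_FR and WT_FR, and neither was called. For rps18 the phyA arrays read 307.9 and 280.5, below all others, which lay between 317.9 and 516.6 with WT_FR highest at 516.6 and 475.1 (-0.66 ± 0.22, limma adjusted p = 0.0829). For rpl33 phyA_FR read 1397.8, below every other array, and phyA_D 1515.3, within the range of the rest. Over all members both phyA arrays were above the other 8 for 14 of 32 (43.8%; 4.38% of all tested probe sets), 10 of them ribosomal protein probe sets. They were below them for rps18 alone (4.66% of all tested). Of 44 plastid photosynthesis probe sets 13 were likewise above (29.5%) and 0 below, so the pattern was not particular to the machinery.

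The 17 calls became 8 without a filter on level (5.59% of all probe sets then tested), and between 12 and 22 when an array was left out (9.47% to 12.9% of all tested). Both rps12 probe sets and rps15, rpl14, rpl20, rpl16, rps2 and rpoC1 kept their call in 17 of 17 alternatives run. The lone phyA_FR array was part of every one of these runs, so how far the calls rest on it could not be tested.

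**Figure D4:**
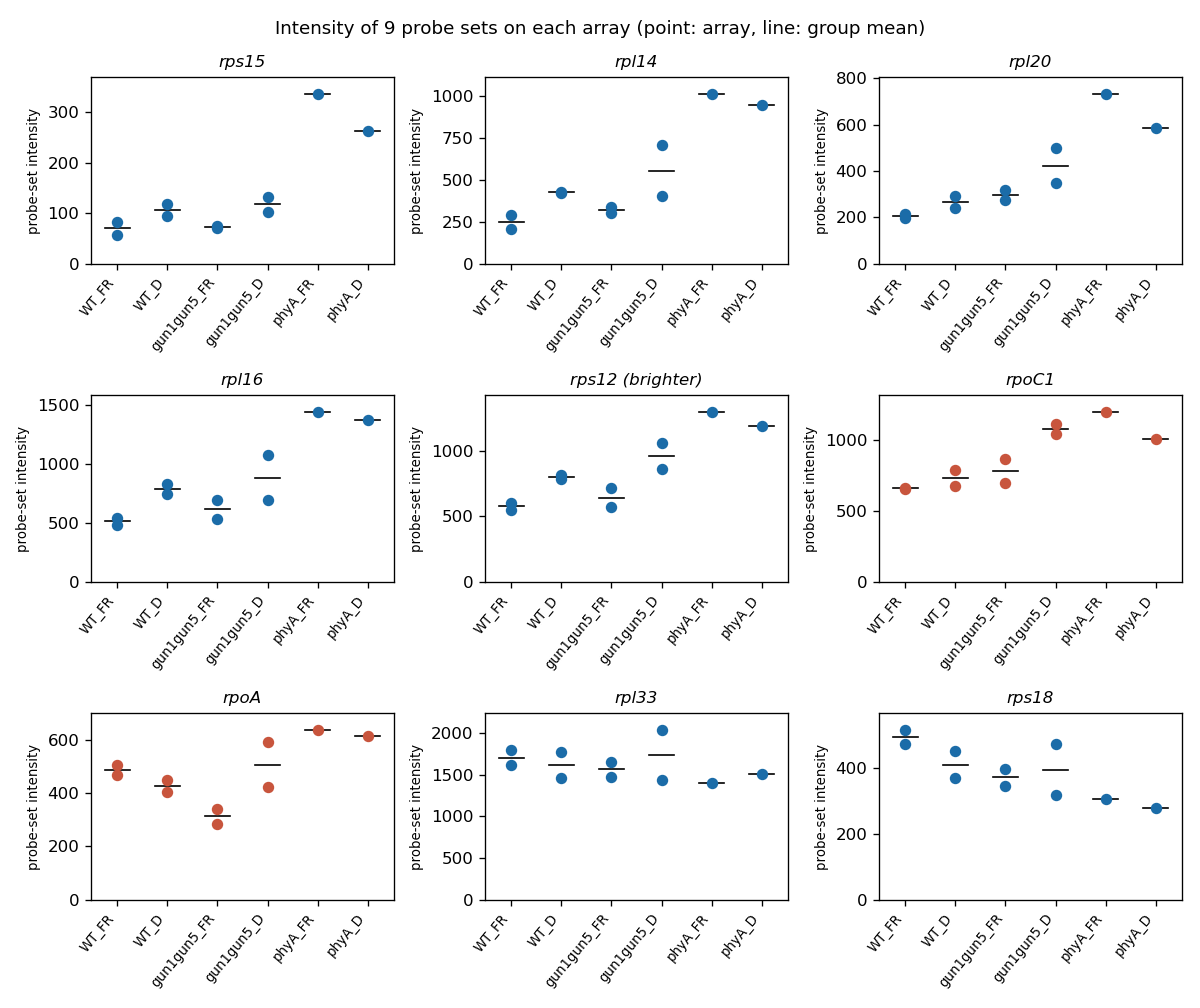
Probe-set intensity (linear, from 0) of rps15, rpl14, rpl20, rpl16, rps12 (brighter probe set), rpoC1, rpoA, rpl33 and rps18 on each array, by group; points are arrays and lines group means. In rps15 the phyA arrays read 335.3 and 262.9 and all others at most 132.2, and rps18 is lowest on the phyA arrays.

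Between the phyA arrays the members' differences were small. With limma 0 of 32 members were called between phyA_FR and phyA_D, as were 0% of all tested probe sets (0 of 32 members and 699 of 13647 probe sets at an unadjusted p under 0.05), and the median was 0.05, with a range from -0.49 (rpl36) to 0.33 (rps15). With a lone array on each side, the lack of calls does not show that the arrays were alike.

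Without far-red, phyA_D differed from gun1gun5_D in 1 member of 32 (3.12%; 3.42% of all tested probe sets), rps15, which rose by 1.07 ± 0.22, or 2.1-fold (limma adjusted p = 0.0288). The medians were 0.32 for ribosomal proteins, 0.15 for the polymerase and 0.10 for the others. Without gun1gun5_D replicate 1 they were 0.10, -0.05 and -0.09, and without replicate 2 they were 0.49, 0.36 and 0.23. That call ended without gun1gun5_D replicate 1 or either gun1gun5_FR replicate, and without a filter on level. Between phyA_D and WT_D, which differ in medium, 0 of 32 were called by limma (0.0586% of all tested, with 0.044% higher and 0.0147% lower), and 22 of 32 had an unadjusted p under 0.05 (1119 of 13647 probe sets). The largest of these differences were rps15 (1.21 ± 0.22) and rpl36 (1.21), followed by rpl14 (1.12 ± 0.28) and rpl20 (1.10 ± 0.21), and the median was 0.50.

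**Figure D5:**
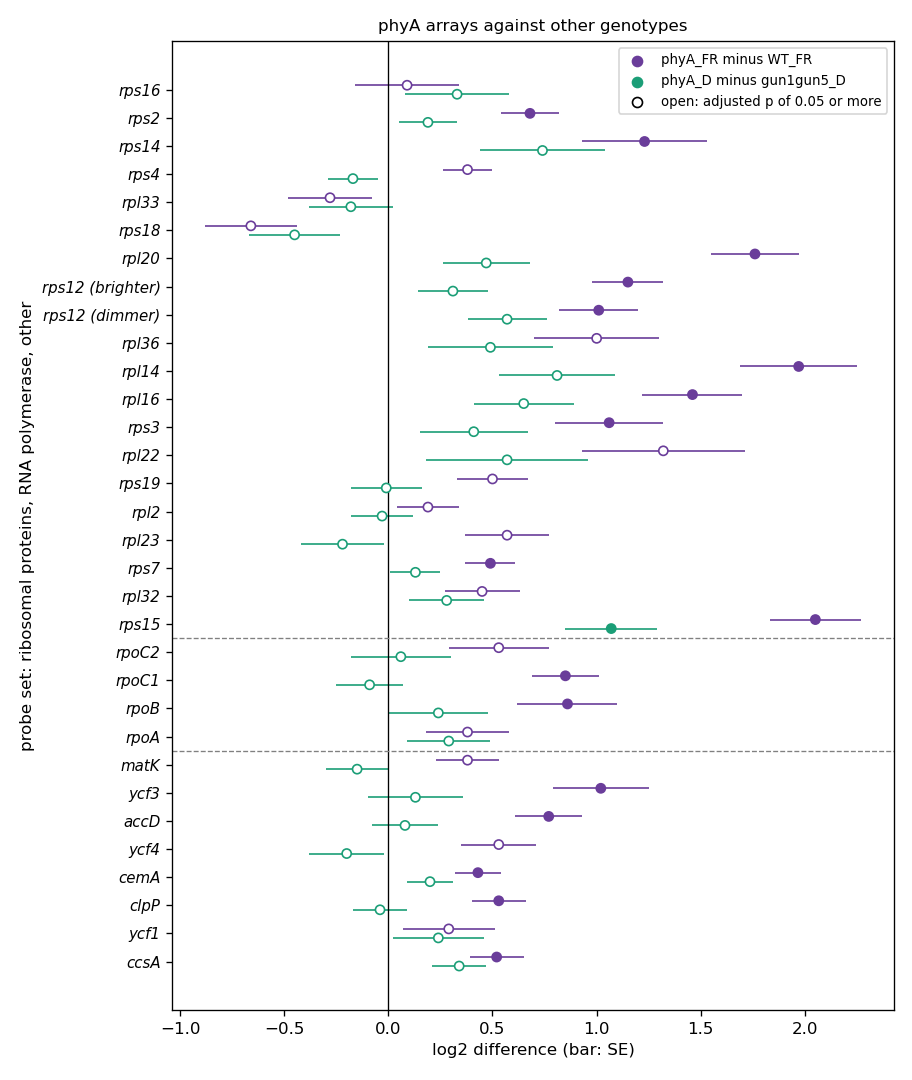
Differences (log2, points; bars, SE) of phyA_FR from WT_FR (purple) and of phyA_D from gun1gun5_D (green) for the 32 tested members, filled where limma's adjusted p was under 0.05. The purple points of rps15, rpl14 and rpl20 lie furthest right, at 2.05, 1.97 and 1.76, and those of rpl33 and rps18 left of 0.

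Members that lie next to each other on the plastid genome did not move by equal amounts. The longest run of members in RefSeq order (assembly TAIR10.1) goes from rpl23 to rpoA, with 9 measured genes. Taken in order, the difference of phyA_FR from WT_FR was 0.57 for rpl23, 0.19 for rpl2, 0.50 for rps19, 1.32 for rpl22, 1.06 for rps3, 1.46 for rpl16, 1.97 for rpl14, 1.00 for rpl36 and 0.38 for rpoA. The values were highest in the middle and low at both ends. At one end, rpl23 and rpl2 each list 2 loci, so their signal cannot be assigned to this run alone. In the wild-type far-red contrast, which shares the WT_FR arrays, the same genes gave -0.50, -0.10, -0.21, -0.62, -0.59, -0.61, -0.76, -0.28 and 0.18. In gun1gun5, with arrays of its own, they gave -0.64, -0.21, -0.30, -0.48, -0.46, -0.50, -0.70, -1.06 and -0.66. The interaction was not called for any of the 9.

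In the run rps2, rpoC2, rpoC1 and rpoB the medians were -0.18 in the wild-type far-red contrast, -0.33 in gun1gun5 and 0.76 between phyA_FR and WT_FR. The stretch rpl33, rps18, rpl20, rps12 and clpP was split between phyA_FR and WT_FR. There rpl33 and rps18 lay below 0, and rpl20 and clpP lay above it and were called. Both rps12 probe sets also lay above 0 and were called. They list 2 loci and were placed in this stretch by gene symbol alone, so their position in it is not settled. In plants rpl33 and rps18 are known to be transcribed together, from the strand opposite to rpl20. For accD, ycf4 and cemA, with psaI among them, that contrast gave 0.77, 0.53 and 0.43. Members with a mean level under 9.67 (log2), the 16 in the lower part, had a median of 1.01 there and the 16 above it 0.52. Spearman's rho between level and difference over 32 members was -0.46, a description over probe sets that share arrays. The part of a signal ceiling was not tested.

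Nuclear genes for the same apparatus were looked at beside the members. Of 22 written RNA polymerase partners (sigma factors, PEP-associated proteins and phage-type polymerases) only the gene of RPOTmp (AT5G15700), a phage-type polymerase, had a named probe set, and it lay below the filter at 9.2 to 23.9. Of 37 nuclear-encoded plastid ribosomal proteins 9 were tested, and with limma 0 were called in either far-red contrast, with medians of 0.06 in WT and 0.03 in gun1gun5. PRPL34 and PRPL3, large-subunit proteins, differed by 0.08 ± 0.11 and 0.10 ± 0.10 in WT. In gun1gun5 they differed by -0.13 ± 0.11 and -0.02 ± 0.10. Between gun1gun5_FR and WT_FR, where 20.2% of all tested probe sets were called, 2 of 9 rose, PRPS6 (0.38 ± 0.12, limma adjusted p = 0.0485) and PRPL19a (0.42 ± 0.13, limma adjusted p = 0.0388), with a median of 0.22. Between phyA_FR and WT_FR the 9 had a median of -0.09 and 0 calls, beside 0.84 for the plastid-encoded ribosomal proteins.

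Of 22 plastid RNA processing and translation factors 3 were tested and 0 called in the far-red contrasts. CP29B, an RNA-binding protein, differed by 0.20 ± 0.14 in WT and 0.01 ± 0.14 in gun1gun5, and FUG1, a translation initiation factor, by -0.34 ± 0.13 and -0.20 ± 0.13. FUG1 was higher in gun1gun5_FR than in WT_FR by 0.50 ± 0.13 (limma adjusted p = 0.0226), and CP29B fell by 0.72 ± 0.17 in phyA_D relative to gun1gun5_D (limma adjusted p = 0.0483). Of 32 nuclear partners of clpP, accD, ccsA and the ycf genes, 9 were tested. After far-red 1 rose and 1 fell in WT (22.4% of all tested probe sets called), and 2 rose in gun1gun5 (14.4% of all tested). Between gun1gun5_FR and WT_FR 2 rose (20.2% of all tested). In phyA_FR against WT_FR 1 fell (12.6% of all tested), as did 1 in phyA_D against gun1gun5_D (3.42% of all tested). PYG7, a photosystem I assembly factor like ycf3, read 197.9 and 229.6 in WT_FR, 134.8 and 144.4 in WT_D, 249.4 and 254.0 in gun1gun5_FR and 165.5 and 182.5 in gun1gun5_D. It rose after far-red by 0.56 ± 0.13 in WT (limma adjusted p = 0.0109) and by 0.50 ± 0.13 in gun1gun5 (limma adjusted p = 0.0273).

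On the phyA arrays PYG7 read 140.0 and 121.8, lower than in WT_FR by 0.56 in log2 (-0.56 ± 0.16, limma adjusted p = 0.0418), where ycf3 was higher by 1.02. The Clp adaptor CLPS1 read 511.9 and 418.6 in WT_FR against 595.1 and 802.7 in WT_D and fell by 0.56 ± 0.16 (limma adjusted p = 0.0297). The Clp core subunit CLPR3 read 637.9 and 580.8 in gun1gun5_FR against 456.2 and 453.8 in gun1gun5_D and rose by 0.41 ± 0.12 (limma adjusted p = 0.0414), while clpP itself differed by -0.33 ± 0.10 and was not called (limma adjusted p = 0.0556). Partners of ccsA in cytochrome c assembly differed by genotype: CCDA rose by 0.89 ± 0.16 and CCS1 by 0.45 ± 0.13 in gun1gun5_FR relative to WT_FR (limma adjusted p = 0.00384 and 0.0325). CCS1 fell by 0.86 ± 0.16 in phyA_D relative to gun1gun5_D (limma adjusted p = 0.021). PRPS6, PRPL19a, CCDA and CCS1 are named because they were called in these contrasts, after their values were seen.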

How the data were processed

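Per the labels' protocols, labelled RNA from 10 seedling pools was hybridised to ATH1 arrays. The deposited values are linear probe-set intensities. Their 2%-trimmed means near 100 on every array show the authors' scaling, and the summarisation software is not given in the sources used here. Members were matched through the platform annotation (13513 probe sets with 1 gene, 503 with several, 8730 with none listed, 64 controls) and RefSeq TAIR10.1 gene IDs. Intensities were transformed to log2(value + 16) and probe sets under the 40th percentile of mean level (5.35) were left out. The model in limma 3.58.1 (R 4.3.3) held the group means and a variance trend, with 4 residual and 6.3 prior degrees of freedom and two-sided tests, adjusted by Benjamini and Hochberg within each contrast. The script was tested on simulated data. The number of arrays limits the precision. The members, the gene lists and the contrasts were chosen with earlier results of these data known. Values in every sample were given for members called in any contrast and the 3 of highest mean level in each class. Of each nuclear list up to 4 members called in the WT or gun1gun5 far-red contrast were named, or the 2 of highest level where none was, with others marked where named. Alternatives were pseudocounts of 1 and 64, quantile normalization, median centring, no filter or the 60th percentile, no trend, the compared groups alone, a replicate block and leaving out each array. No sequences were used, and RefSeq coordinates served only to order genes along the plastid genome.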

Additional observations from a re-analysis of the deposited data

How the results depend on the processing

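No difference of a member changed sign past the threshold under an alternative run. The count of members called in the wild-type far-red contrast, 4, became 0 after median centring, 0 without a filter, 1 without the variance trend and 7 with the replicate block, and 0 to 7 leaving out an array. In gun1gun5 7 became 4 after median centring and 0 without a filter, and 0 to 14 leaving out an array. The interaction count, 0, became 1 with the block, and 0 to 2. Between gun1gun5_FR and WT_FR 1 became 0 without a filter, 3 with the block and 3 with the compared groups alone, and 0 to 2. Between gun1gun5_D and WT_D 4 became 2 after quantile normalization, 0 without a filter and 7 with the block, and 0 to 5. Between phyA_FR and WT_FR 17 became 8 without a filter, and 12 to 22. Between phyA_D and gun1gun5_D 1 became 0 without a filter and 2 with the block, and 0 to 4. Between phyA_D and WT_D 0 became 1 with the block. A phyA array is alone in its group, so no comparison could be run without its own phyA array. The ranges given for the phyA comparisons come from leaving out other arrays only. Without a filter 22746 probe sets were tested in place of 13647. Without it the share of all probe sets called also fell, to 11.5% in the wild-type far-red contrast, 5.5% in gun1gun5, 9.88% and 5.59% for gun1gun5_FR and phyA_FR against WT_FR, 2.57% for gun1gun5_D against WT_D and 0.717% for phyA_D against gun1gun5_D. With the block these shares were 25%, 17.3%, 23.4%, 14.5%, 12% and 9.45%, and median centring left 22.3% and 14.9% in the far-red contrasts. Leaving out an array gave 13.5% to 22.5% and 3.71% to 15.8% in the far-red contrasts, 1.09% to 2.89% for the interaction (3.67% with the block), 7.14% to 20.2% for gun1gun5_FR against WT_FR, 2% to 10.9% for gun1gun5_D against WT_D and 0.894% to 5.61% for phyA_D against gun1gun5_D. The other causes were not tested. The labels do not say that equal replicate numbers mark a shared batch, and deviations of same-numbered arrays correlated at 0.0642 to 0.187, with 4 of 6 correlations over 0.1, so the numbers were not taken as a pairing and the fit without the block was kept. The number of arrays, 2 or 1 in a group, limits what can be called.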
